A study of Mus musculus with 8 samples.

Results

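Replication initiation sites (ISs) near the distal ends of 16 mouse chromosomes were examined in CH12 cells, which derive from a murine B lymphoma. An IS was included when its midpoint lay within 3 Mb of the high-coordinate end of its chromosome in the mm9 assembly, on every autosome except chromosomes 10, 15 and 16. On these chromosomes ISs were taken by position alone, while the rule itself, with the 3 chromosomes it leaves out, was set with earlier results of these data known. It took 933 of the 39116 ISs in the table of Rif1KO against WT cells and 2841 of the 129937 ISs in the table of Rif1KO_shMcm6 against Rif1KO_shLacZ cells. Of the distal ISs of the first table, 778 (83.4%) overlapped an IS of the second table, and 766 (27%) overlapped in the other direction.

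The ISs come from 8 libraries of short nascent strand sequencing (SNS-seq), 2 for each of 4 groups, which asked how loss of RIF1, and depletion of MCM6 in cells without RIF1, change origin use. WT cells carried intact Rif1, Rif1KO cells lacked it, and both hairpin groups were Rif1KO cells infected with a lentivirus expressing a short hairpin RNA, against LacZ as the control for infection or against Mcm6. All groups were CH12 cells that the labels give as stimulated with IL4, CD40 and TGF beta, so both groups of the MCM6 comparison shared the Rif1 deletion and no WT cells with a hairpin entered it; whether the Rif1KO cells of these libraries were 1 clone is not given in the sources used here. The deposited tables hold 1 pooled read density per IS and condition, so no difference below could be tested across replicates, and the intervals cover the spread over ISs or the counting of reads only. Read density is given as log2 RPM, reads per 1000000 reads that fell in the ISs of the same table, and fold change as the treated minus the control log2 density. The WT, Rif1KO, Rif1KO_shLacZ and Rif1KO_shMcm6 columns rest on 3350255, 3724571, 21071351 and 23602750 reads, with medians of 77, 84, 148 and 165 reads per distal IS.

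Replication origins are licensed when pairs of the MCM helicase, of which MCM6 is a subunit, are loaded on DNA, and a subset of them fires in S phase. SNS-seq enriches the short leading strands made at a firing origin, which are protected from an exonuclease by their RNA primer. Mouse chromosomes are telocentric: the centromere lies at one tip, and the distal end, opposite to it, carries the other telomere, an array of TTAGGG repeats whose neighbourhood varies from gene-rich to gene-poor between chromosomes. RIF1 was first known as a factor bound at yeast telomeres, and in mammals it controls the timing of replication through recruitment of a phosphatase.

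Sequences of distal ISs are shown for the sites the results turn on, read from the + strand of NCBIM37, the same assembly as mm9. They are the middle 200 bases of the distal ISs with the highest and the lowest fold change in Rif1KO cells and with the highest fold change after MCM6 depletion, among ISs of at least median density. Capitals mark runs of at least 3 G or 3 C. The positions are chr14:124287388-124287587, in an intron of Itgbl1, chr11:119192113-119192312, in an IS that overlaps an exon of Card14, and chr11:121754986-121755185, in intergenic sequence.
highest in Rif1KO: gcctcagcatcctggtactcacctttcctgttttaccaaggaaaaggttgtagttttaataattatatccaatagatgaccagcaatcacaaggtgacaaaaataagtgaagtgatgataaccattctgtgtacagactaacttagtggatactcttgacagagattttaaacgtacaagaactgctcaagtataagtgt
lowest in Rif1KO: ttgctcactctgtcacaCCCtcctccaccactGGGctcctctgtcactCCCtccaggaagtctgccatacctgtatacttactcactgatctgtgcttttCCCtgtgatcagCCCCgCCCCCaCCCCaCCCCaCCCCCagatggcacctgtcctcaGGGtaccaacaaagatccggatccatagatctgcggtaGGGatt
highest after MCM6 depletion: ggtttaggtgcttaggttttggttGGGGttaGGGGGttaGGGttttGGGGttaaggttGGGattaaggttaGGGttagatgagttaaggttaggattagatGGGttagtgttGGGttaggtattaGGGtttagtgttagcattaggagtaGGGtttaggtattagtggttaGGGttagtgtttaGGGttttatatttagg
The first of these has 0 such runs, the second has 11, several of them close together in a cytosine-rich stretch, and the third has 12, in an IS that also holds up to 3 telomere hexamers in tandem.

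Distal ISs were more closely spaced than the average of other ISs, but their spacing was much like that of ISs 5 to 20 Mb from the end. In the table of Rif1KO against WT they numbered 19.5 per Mb (exact Poisson 95% interval 18.2 to 20.8) over 47.93 Mb of assembled bases, against 15.1 per Mb (14.9 to 15.2) on the rest of the same chromosomes, a ratio of 1.29. In the table of Rif1KO_shMcm6 against Rif1KO_shLacZ they numbered 59.3 per Mb (57.1 to 61.5) against 52.4, a ratio of 1.13. Further inside, spacing was 19.6 per Mb (18.7 to 20.6) at 5 to 10 Mb from the end and 20.2 (19.5 to 20.9) at 10 to 20 Mb in the first table, and 57.6 and 60.3 in the second, so the excess is not particular to the last 3 Mb, and beyond 20 Mb it was 14.2 and 51.3. The opposite tips of the same chromosomes, the 3 Mb beyond the unassembled centromeric gap, held fewer, 13.8 per Mb (12.7 to 14.9) in the first table and 44.3 (42.4 to 46.2) in the second. The excess was seen in the list of each condition: 680 distal ISs were called in WT cells, 14.2 per Mb, with a ratio of 1.41 to the rest, 788 in Rif1KO cells (1.26), 2240 in Rif1KO_shLacZ cells (1.15) and 2546 in Rif1KO_shMcm6 cells (1.14). The ratio was thus larger in the shorter lists.

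The 16 ends differed widely, and the excess was not shared by all of them. Of the 16 ends, 9 in the first table and 11 in the second held more ISs per Mb than the rest of their chromosome. Chromosome 14 had the most closely spaced end in both tables, with 39.0 ISs per Mb (117 ISs) in the first and 95 (285 ISs) in the second, against 25.6 and 67.3 on the rest of the chromosome. Chromosome 3 followed with 36.7 and 83.0, against 16 and 57.6 on its rest. These are both gene-poor ends, with a median of 3 protein-coding genes within 500 kb of an IS. At the other extreme stood chromosome 17 with 8.33 ISs per Mb in the first table, where the rest of the chromosome had 16, and chromosome 1 with 37.0 in the second, where the rest had 51.7. When the 16 chromosomes were tiled from the distal end in windows of 3 Mb and windows of at least 20 ISs and 2 Mb of assembled sequence were kept, 6 of 604 inner windows of the first table (0.993%) and 2 of 671 of the second (0.298%) were as closely spaced as the end of chromosome 14. The median of the 16 terminal windows was 17.7 ISs per Mb against 15 for inner windows in the first table, and 56.2 against 52.3 in the second. The minimum of 20 ISs dropped sparse inner windows of the first table but no terminal window. The inner median of that table is therefore higher than over all windows. This tiling was chosen after the values of the ends had been seen.

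**Figure D1:**
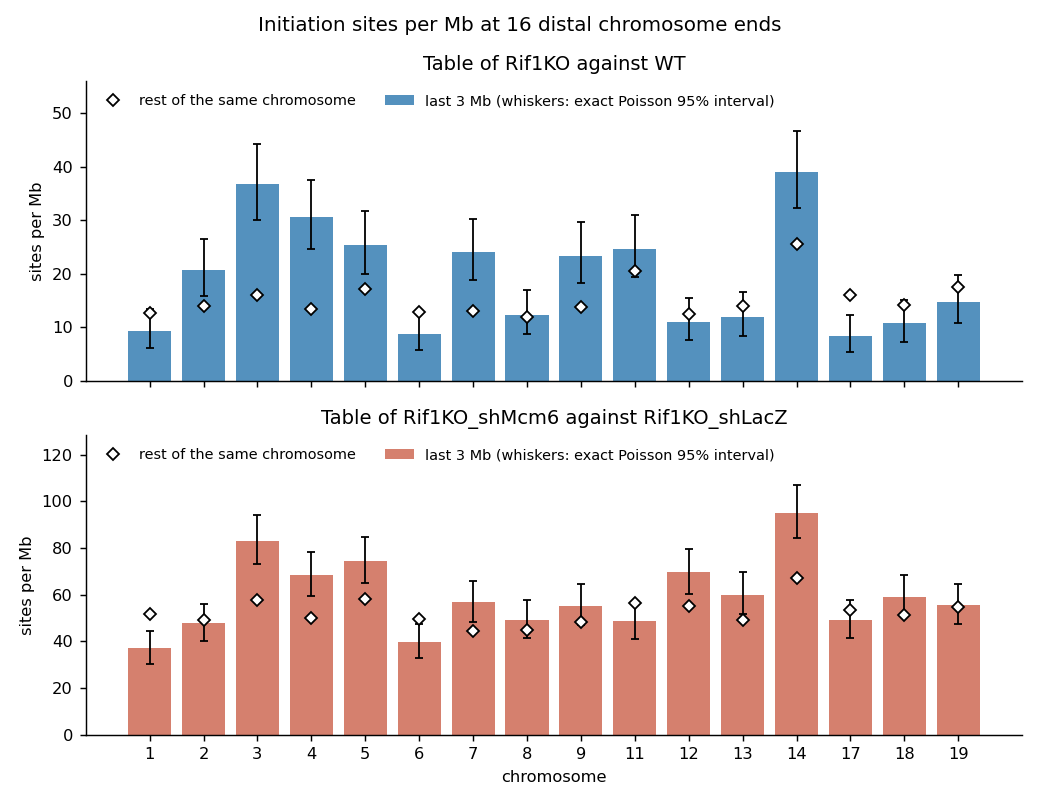
Number of ISs per Mb in the last 3 Mb of each of 16 chromosomes (bars, with exact Poisson 95% intervals as whiskers) and on the rest of the same chromosome (diamonds), in both tables. The ends of chromosomes 3, 4, 5 and 14 stand above the rest of their chromosome in both tables, and the end of chromosome 1 stands below it.

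Read density at a distal IS differed little from that elsewhere. The median WT density was 4.52 log2 RPM (order-statistic 95% interval 4.48 to 4.58) at distal ISs and 4.45 at the other ISs of the same chromosomes, and the Rif1KO density was 4.50 against 4.44. In Rif1KO_shLacZ cells the medians were 2.81 (2.77 to 2.84) and 2.75, and in Rif1KO_shMcm6 cells 2.81 and 2.76. Distal ISs were slightly wider, with medians of 458 and 445 bp in the first table and 607 and 599 bp in the second. Per kb of IS the median distal density exceeded the other by 0.01 (0.00 to 0.04) in WT cells and by 0.02 (0.01 to 0.04) in Rif1KO_shLacZ cells. Of the reads in ISs of the 16 chromosomes, distal ISs held 3.18% in WT, 3.15% in Rif1KO, 2.73% in Rif1KO_shLacZ and 2.71% in Rif1KO_shMcm6 cells, on 2.31% of the assembled length.

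As a group, distal ISs had median fold changes close to 0 in both comparisons. After loss of RIF1 their median log2 fold change was -0.01 (-0.03 to 0.00), against 0.01 at the other ISs of the same chromosomes and -0.01 (-0.04 to 0.01) at the centromere side. At the 1.5-fold threshold of the study, 8 of the 933 (0.857%, 95% Wilson interval 0.435 to 1.68%) had more density in Rif1KO than in WT cells, where 2.27% of the whole table was higher, and 10 were lower (1.07%, 0.583 to 1.96%), where 2.70% was lower. Of the 8, 3 lay at the end of chromosome 13, without which 0.557% were higher, and of the 10, 4 lay at the end of chromosome 11, without which 0.698% were lower. The whole-table shares include chromosomes 10, 15 and 16, and on the rest of the same 16 chromosomes 0.948% were higher and 1.35% were lower, both inside the distal intervals. After MCM6 depletion the median was -0.02 (-0.03 to -0.01) against -0.01 elsewhere. Of the 2841 distal ISs, 120 were higher (4.22%, 3.54 to 5.03%) where 4.80% of the whole table was higher, and 43 were lower (1.51%, 1.13 to 2.03%) where 1.51% was. These shares lie near the background and are no result about the chromosome ends. The spread of fold changes was alike too, with a standard deviation of 0.25 in both sets of the first table, and of 0.31 at distal and 0.32 at other ISs of the second. At the same GC content, over 5 classes of equal size, distal ISs differed from the others by -0.018 (-0.041 to 0.002) after loss of RIF1 and by -0.008 (-0.021 to 0.006) after MCM6 depletion. Within classes of gene number the difference after loss of RIF1 was -0.031 (-0.045 to -0.003), and within classes of WT density -0.010 (-0.026 to 0.009).

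Fewer distal ISs than others were called in Rif1KO cells alone. Of the distal ISs of the first table, 535 (57.3%, 54.1 to 60.5%) were called in both conditions, against 53.0% elsewhere, and 145 (15.5%) in WT cells only, against 13.6%. The 253 called in Rif1KO cells only made up 27.1% (24.4 to 30.1%), against 33.5% (32.9 to 34.0%) of the other ISs. All 8 ISs that were at least 1.5-fold higher were among these 253, and 7 of the 10 lower ISs were called in WT cells only. Both conditions of the second table shared 1925 distal ISs (67.8%), while 300 (10.6%) were called with the LacZ hairpin alone and 616 (21.7%, 20.2 to 23.2%) with the Mcm6 hairpin alone, against 23.0% of the others. Of the 120 higher ISs 102 belonged to these 616. Whether an IS is called in a condition depends itself on its density there, so an IS called in 1 condition of a table was selected to be higher in it, which is stated below for single ISs far from 0.

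In the first table the 3 Mb limit fell inside a region of like ISs rather than at an edge. Just inside it, 377 ISs of the first table at 2 to 3 Mb from the end had a median WT density of 4.61 log2 RPM, a median log2 fold change of -0.04 (-0.08 to -0.02), a GC content of 50.7% and 23.6 ISs per Mb. Just outside it, 777 ISs at 3 to 5 Mb had 4.60 log2 RPM, -0.02 (-0.04 to -0.01), 50.2% and 24.4 per Mb. In the second table spacing did step at the limit, from 67.4 ISs per Mb (63.4 to 71.5) at 2 to 3 Mb to 60.1 (57.4 to 62.8) at 3 to 5 Mb. Median log2 fold change there was -0.03 and -0.04, and GC content 48.2% and 47.9%. The outermost sequence was different in kind. The 161 ISs of the first table within 0.5 Mb of an end had a median GC content of 44.6% and 4 protein-coding genes within 500 kb, against 10 genes at 2 to 3 Mb. In the second table GC content was 41.5% within 0.5 Mb and 48.2% at 2 to 3 Mb. Spacing dipped between them, from 20.3 ISs per Mb in the outermost 0.5 Mb to 16.2 (13.6 to 19.3) at 0.5 to 1 Mb in the first table, and from 62.2 to 52.0 (47.1 to 57.2) in the second. Among ISs of the first table, 0 within 1 Mb of an end were at least 1.5-fold higher in Rif1KO cells (Wilson upper limit 1.30%), while 2 of the 161 within 0.5 Mb and 3 of the 130 at 0.5 to 1 Mb were lower. On the rest of the 16 chromosomes 0.948% were higher and 1.35% lower, and the limit of 1.30% includes the first of these shares.

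**Figure D2:**
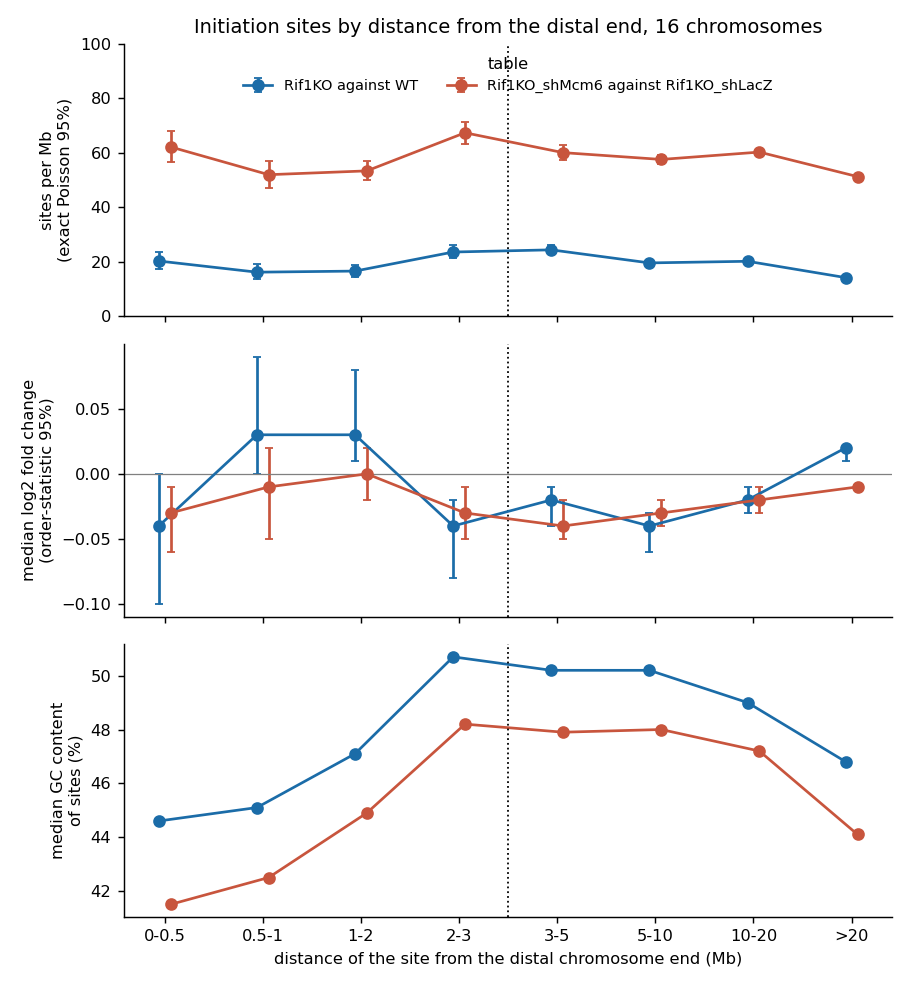
ISs of 16 chromosomes by distance from the distal end in Mb: ISs per Mb (exact Poisson 95% intervals), median log2 fold change (order-statistic 95% intervals) and median GC content of ISs in percent, for both tables, with the 3 Mb limit as a dotted line. GC content in the first table is 44.6% in the outermost bin and 50.7% at 2 to 3 Mb. Values on both sides of the limit are alike in the first table. In the second, spacing is 67.4 ISs per Mb just inside the limit and 60.1 just outside it.

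Fold changes differed between the ends in the way that their GC content differed. Across the 16 ends, the median log2 fold change in Rif1KO cells ran against the median GC content within 100 kb of an IS, with a Spearman's rho of -0.774, and -0.726 without chromosome 11; inner 3 Mb windows gave -0.754 over 604 windows. For MCM6 depletion rho was -0.547 at the ends, -0.45 without chromosome 11, and -0.64 over 671 inner windows. These are descriptions across windows of the same pooled libraries, and the relation at the ends was like that of inner windows. The 8 ends of higher GC content, those of chromosomes 2, 4, 5, 7, 8, 9, 11 and 19, held 526 ISs with a median of -0.06 (-0.10 to -0.04) after loss of RIF1, of which 61.4% lay below 0. The 8 others, on chromosomes 1, 3, 6, 12, 13, 14, 17 and 18, held 407 ISs with a median of 0.06 (0.03 to 0.10), of which 40.0% lay below 0. GC-rich ends are also gene-rich ends: 11.8% of their ISs lay at promoters, 1 kb or less from a transcription start site (TSS), against 2.70% at the GC-poor ends, with medians of 12 and 3 protein-coding genes within 500 kb. After MCM6 depletion the medians were -0.04 (-0.07 to -0.03) over 1364 ISs and 0.00 (-0.01 to 0.02) over 1477. The part of base composition, gene number or promoter share in these differences was not tested.

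**Figure D3:**
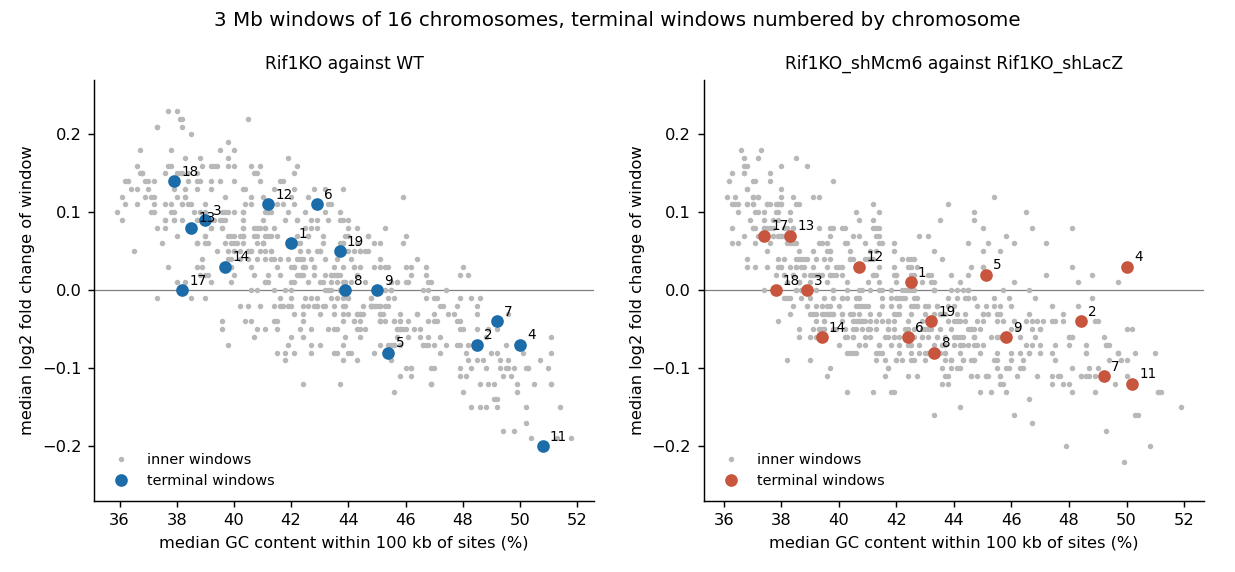
Median log2 fold change of 3 Mb windows tiled from the distal end, against the median GC content within 100 kb of their ISs in percent, with the 16 terminal windows coloured and numbered by chromosome and inner windows in grey. In Rif1KO cells the terminal window of chromosome 11, at -0.20, lies below all 604 inner windows, whose lowest is -0.19.

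The end of chromosome 11 had the lowest median after loss of RIF1. Its 74 ISs had a median log2 fold change of -0.20 (-0.25 to -0.15), with 61 of them below 0, while the rest of the chromosome had a median of -0.02. At least 1.5-fold lower were 4 of the 74 (5.41%, 2.12 to 13.1%), beside 2.70% of the whole table, which lies inside the interval, and 1.35% on the rest of the 16 chromosomes, which lies below it. No inner window of the 604 reached this value. The end is a gene-dense region, with a median of 16 protein-coding genes within 500 kb of an IS and 18.9% of ISs at promoters, and its GC content of 50.8% within 100 kb of an IS was the highest of the 16 ends. Within classes of GC content the median difference of its ISs from other ISs was -0.13 (-0.19 to -0.08), and the end is described here because it was the lowest of the 16. The 60 ISs outside promoters had a median of -0.21 (-0.28 to -0.13) and the 14 promoter ISs -0.17 (-0.36 to 0.05). By distance the median was -0.13 in the last 1 Mb, -0.19 at 1 to 2 Mb and -0.22 (-0.33 to -0.15) at 2 to 3 Mb, where 32 of 34 ISs lay below 0. Further in it was -0.08 (-0.13 to -0.06) at 3 to 6 Mb and -0.10 at 6 to 9 Mb, and it turned to 0.07 (0.01 to 0.14) at 9 to 12 Mb, where GC content was 39.9%. After MCM6 depletion the 146 ISs of this end had a median of -0.12 (-0.20 to -0.04), a value that 30 of 671 inner windows (4.47%) reached, and the same reversal to 0.10 (0.03 to 0.16) was seen at 9 to 12 Mb. Chromosome 11 was thus low at its end in both comparisons, which share no library. After MCM6 depletion the low value was not particular to the end, as the median was -0.13 (-0.18 to -0.08) at 3 to 6 Mb. Within the end it was -0.09 in the last 1 Mb, -0.06 at 1 to 2 Mb and -0.18 (-0.28 to -0.07) at 2 to 3 Mb.

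After loss of RIF1 the other ends departed from the rest of their chromosome by 0.10 or less, against -0.18 for chromosome 11, while after MCM6 depletion chromosomes 13 (0.10), 17 (0.09), 7 (-0.09) and 14 (-0.09) departed by more than the -0.08 of chromosome 11. After loss of RIF1, 6 ends lay below the rest of their chromosome and 10 above it, with a highest median of 0.14 (-0.01 to 0.23) on chromosome 18, whose 32 ISs are in gene-poor sequence. After MCM6 depletion 8 lay below and 8 above, from the -0.12 of chromosome 11 to 0.07 on chromosomes 13 and 17. The end of chromosome 7, which carries the imprinted Igf2 to Kcnq1 cluster, had a median of -0.11 (-0.16 to -0.07) over 170 ISs, against -0.02 on the rest, but only -0.04 (-0.12 to -0.01) over 72 ISs after loss of RIF1. The end of chromosome 14 had -0.06 (-0.08 to -0.03) against 0.03 on the rest after MCM6 depletion, and at the same GC content its difference from other ISs was -0.06 (-0.11 to -0.03). At the end of chromosome 4, 22 of 205 ISs were at least 1.5-fold higher after MCM6 depletion, 10.7% (7.19 to 15.7%) where 4.80% of the whole table was, and more than at any other of the 16 ends. Its median was 0.03 (-0.04 to 0.07), and at the same GC content it differed from other ISs by 0.08 (0.01 to 0.14), as chromosome 5 did by 0.06 (0.01 to 0.09). Of the 16 intervals at the same GC content after MCM6 depletion, 2 lay above 0 and 2 below it, those of chromosomes 11 and 14. After loss of RIF1 0 lay above 0 and 2 below it, those of chromosome 11 and of chromosome 4 at -0.06 (-0.08 to -0.01), so chromosome 4 had opposite signs in the comparisons.

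**Figure D4:**
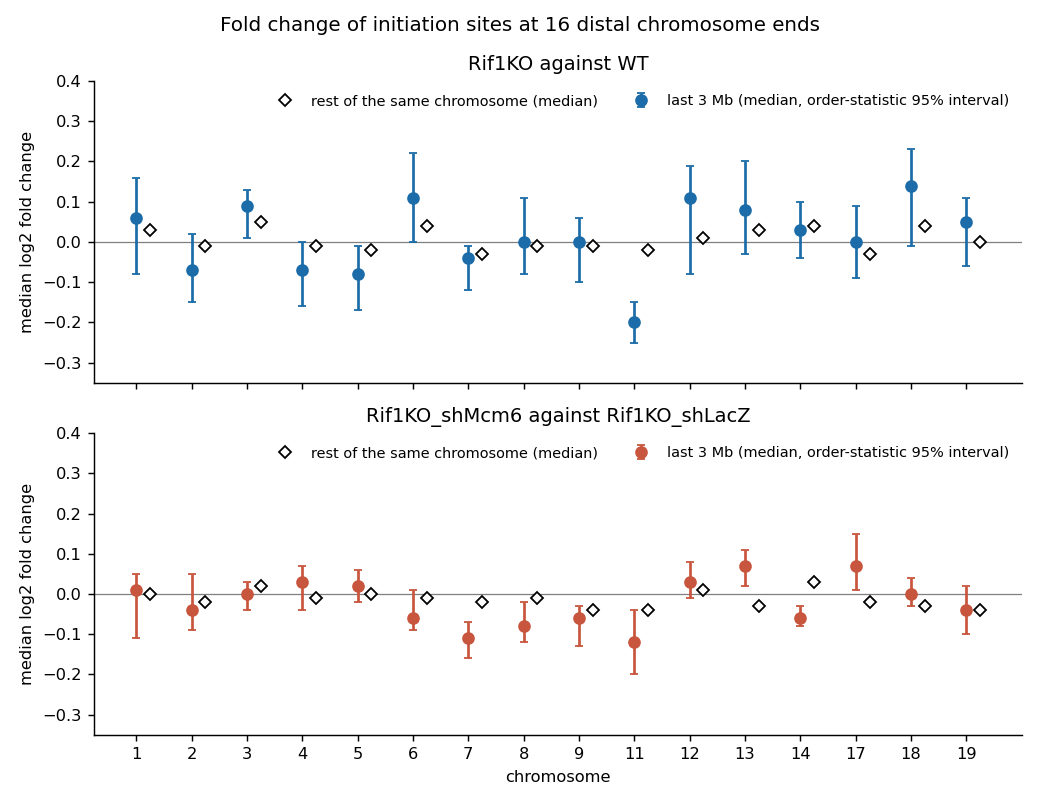
Median log2 fold change of the ISs in the last 3 Mb of each of 16 chromosomes (circles, with order-statistic 95% intervals) and of the ISs on the rest of the chromosome (diamonds), for loss of RIF1 (upper panel) and MCM6 depletion in Rif1KO cells (lower panel). The end of chromosome 11 is lowest in both panels, at -0.20 and -0.12.

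Telomere repeats marked a small set of distal ISs. At least 2 tandem copies of TTAGGG or CCCTAA were found in 7 of the 933 distal ISs of the first table (0.750%, Wilson 0.364 to 1.54%), against 26 of the 30481 other ISs of the same chromosomes (0.0853%, 0.0582 to 0.125%), and in 8 of the 2841 of the second (0.282%, 0.143 to 0.555%), against 69 of 106019 (0.0651%). At the opposite tips of the chromosomes they were found in 1 of 658 and 0 of 2119 ISs. In windows of the same width placed 5 kb to either side of distal ISs, 1 of 1858 and 5 of 5670 held them. Windows that would pass the chromosome end were left out, so these windows could hardly fall in the terminal arrays. In the mm9 assembly 4 of the 16 chromosomes, 2, 5, 11 and 18, end in a hexamer array, with longest unbroken runs of 44, 22, 29 and 75 hexamers. Each of the 4 had an IS within 1 kb of its end in at least 1 table, with 3 of them in each table. Of the other 12 chromosomes, which end without such an array, 5 had an IS in the last 10 kb. Among these 5, only chromosomes 9 and 13 had one within 1 kb. Only reads with a unique alignment were used by the authors, so the ISs at arrays rest on reads that could be placed there.

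ISs at the terminal arrays gave 6 values, and 3 of them come from ISs that entered their table through the treated condition alone, so that a higher treated density was built into those 3. At the end of chromosome 2, the IS had 124 WT and 166 Rif1KO reads, 5.21 and 5.48 log2 RPM (log2 fold change 0.27 ± 0.17, counting SE). In the second table the IS of the same end had 557 Rif1KO_shLacZ and 761 Rif1KO_shMcm6 reads, 4.72 and 5.01 log2 RPM (0.29 ± 0.08). It was the only one of these ISs found in the lists of all 4 conditions. At the end of chromosome 11, where the IS was called in the treated condition only in both tables, 36 WT and 60 Rif1KO reads gave 0.58 ± 0.30, and 65 Rif1KO_shLacZ and 102 Rif1KO_shMcm6 reads gave 0.49 ± 0.23. At the end of chromosome 5, found in the second table and called only after MCM6 depletion, 42 and 68 reads gave 0.53 ± 0.28, and at that of chromosome 18, found in the first, 119 and 136 reads gave 0.04 ± 0.18. None of the 6 values reached 1.5-fold. Of the 3 from ISs called in the control as well, those of chromosome 2 were 0.27 and 0.29 and that of chromosome 18 lay within its counting error of 0. Counting errors were large beside them except for the IS of chromosome 2 in the second table.

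Further inside the chromosomes lay 4 distal ISs with hexamers in the first table and 5 in the second. The largest difference was at chr11:121754659-121755511, intergenic and 88.8 kb from the end, shown above as the highest after MCM6 depletion, where 111 Rif1KO_shLacZ and 285 Rif1KO_shMcm6 reads gave 1.20 ± 0.16. In the first table the same place had 60 WT and 45 Rif1KO reads (-0.57 ± 0.28). It was called in WT and Rif1KO_shMcm6 cells alone, so both signs were selected for. Of the other inner sites, chr17:95246951-95247315 had 0.09 ± 0.25 and -0.01 ± 0.17, and chr4:154806641-154807035, in an intron, 0.24 ± 0.26, where it was called in Rif1KO but not in WT cells, and -0.35 ± 0.14. The others were found in 1 table each, on chromosome 18 with 0.23 ± 0.17 (called in Rif1KO cells alone), on chromosome 19 with 0.12 ± 0.17 (called in Rif1KO_shMcm6 cells alone) and on chromosome 4 with -0.05 ± 0.14. Over the whole second table, 15 of the 86 ISs with tandem hexamers (17.4%, 10.9 to 26.8%) were at least 1.5-fold higher after MCM6 depletion and 0 were lower, with a median of 0.16, where 4.80% of all ISs were higher, and 11 of the 15 were called in Rif1KO_shMcm6 but not in Rif1KO_shLacZ cells. Distal ISs contributed 1 of these 15. Of the 36 in the first table, 0 were higher and 1 was lower, with a median of 0.00.

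**Figure D5:**
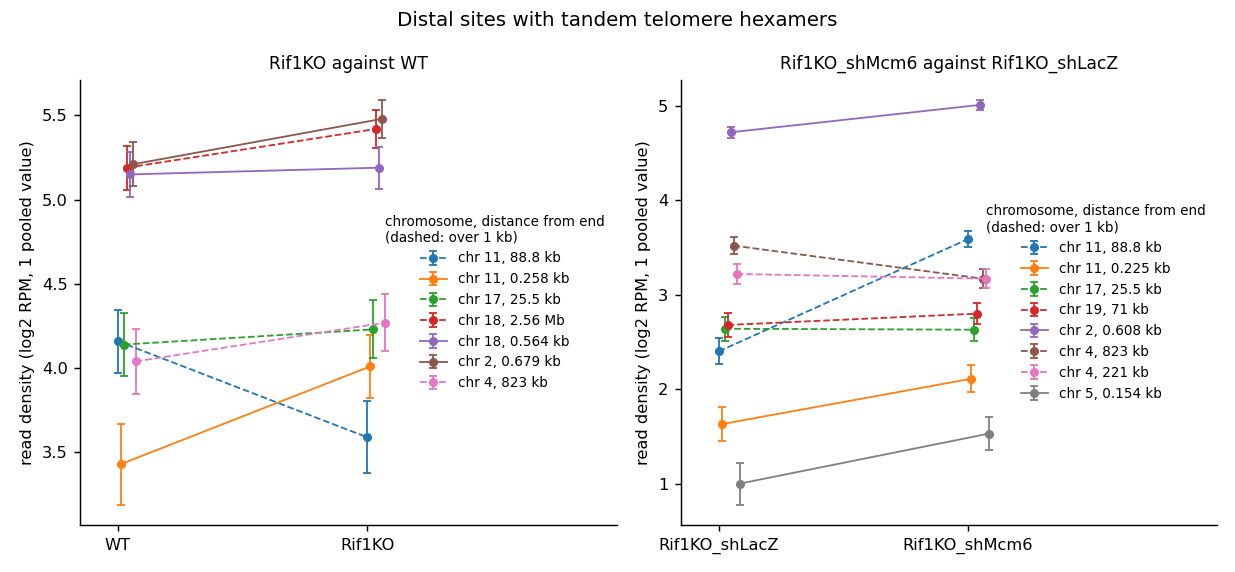
Read density in log2 RPM of the distal ISs that hold tandem telomere hexamers, 7 in the table of Rif1KO against WT (left) and 8 in that of Rif1KO_shMcm6 against Rif1KO_shLacZ (right), with counting SE of the log2 value as bars and lines joining the conditions. Solid lines mark ISs within 1 kb of the end, and dashed lines mark ISs further inside. The solid lines of chromosomes 11 and 5 are ISs called in the treated condition only, so their upward slope was selected for.

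In the last 10 kb of the 16 chromosomes lay 9 ISs of the first table, at 5 ends, and 14 of the second, at 8 ends. Of those without hexamers, 4 of 6 were lower in Rif1KO than in WT cells and 8 of 11 were lower in Rif1KO_shMcm6 than in Rif1KO_shLacZ cells, where 52.1% and 52.9% of all distal ISs lay below 0. The end of chromosome 13 supplied 3 of the 4 and 3 of the 8. At the end of chromosome 13, over the predicted gene Gm7120, an exonic IS 0.371 kb from the end had 141 WT and 119 Rif1KO reads (-0.40 ± 0.18), and its promoter IS at 2.59 kb had 271 and 274 reads (-0.14 ± 0.12). In the second table the exonic IS had 145 and 126 reads (-0.37 ± 0.18), the promoter IS 540 and 449 reads (-0.43 ± 0.09), and an intergenic IS at 4.44 kb 277 and 218 reads (-0.51 ± 0.13). These 3 were called in Rif1KO_shLacZ but not in Rif1KO_shMcm6 cells, so their lower density after MCM6 depletion was selected for.

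Among distal ISs of at least median density, few single ISs stood far from 0 after loss of RIF1. The highest, chr14:124287034-124287941 in an intron of Itgbl1, which encodes an integrin beta-like protein, had 111 WT and 177 Rif1KO reads (0.52 ± 0.17) and was called in all 4 conditions. It was AT-rich, with a GC content of 35%. Next were chr18:89536888-89537610 in an intron of Dok6, an adaptor of receptor tyrosine kinases (0.46 ± 0.22), and an intergenic IS at chr5:152100119-152100835 (0.45 ± 0.22), both called in Rif1KO but not in WT cells and so selected to be higher. The lowest, chr11:119191870-119192554, overlapped an exon of Card14, which encodes a scaffold protein of NF-kappaB signalling, and had 154 WT and 109 Rif1KO reads (-0.65 ± 0.18) at a GC content of 55.5%. It was followed by an intergenic IS at chr12:121042967-121043601 (-0.61 ± 0.22) and by chr11:120762642-120763136 in an intron of Ccdc57 (-0.56 ± 0.22). Thus 2 of the 3 lowest lay at the end of chromosome 11. Each is an extreme among 503 ISs.

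After MCM6 depletion the extremes were larger and the reads behind them more numerous. Besides the telomere-like IS of chromosome 11, the highest were intergenic ISs at chr3:157042411-157043435 (143 and 327 reads, 1.03 ± 0.14) and chr5:150713852-150714810 (144 and 311 reads, 0.95 ± 0.15). These 3 were called in Rif1KO_shMcm6 but not in Rif1KO_shLacZ cells and so selected to be higher. The lowest were chr7:149534098-149534686 in an intron of 6330512M04Rik (247 and 153 reads, -0.85 ± 0.15), chr19:59240428-59240875 over an exon of Vax1, a homeobox gene of eye and forebrain development (192 and 128 reads, -0.75 ± 0.16), and an intergenic IS at chr2:180042943-180043615 (192 and 133 reads, -0.69 ± 0.16). All 3 lay at GC-rich ends, as did the high ISs on chromosomes 11 and 5. Of all ISs at GC-rich ends 5.13% were at least 1.5-fold higher and 2.05% lower, and at GC-poor ends 3.39% and 1.02%. Over the whole table the shares were 4.80% and 1.51%.

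The densest distal ISs had small fold changes. In WT cells they were an intergenic IS at chr4:152941807-152942645 with 435 reads (7.02 log2 RPM) and the promoters of Aatk on chromosome 11 (6.80) and Nadk, the NAD kinase gene, on chromosome 4 (6.60), with log2 fold changes of -0.01 ± 0.10, -0.04 ± 0.10 and -0.12 ± 0.11 in Rif1KO cells. In Rif1KO_shLacZ cells they were the Igf2 promoter on chromosome 7 (806 reads, 5.26 log2 RPM), the promoter of Zic2, a zinc finger gene of brain development, on chromosome 14 (5.23), and an exonic IS of Lars2, the mitochondrial leucyl-tRNA synthetase gene, on chromosome 9 (5.20). After MCM6 depletion these had 0.15 ± 0.07, -0.12 ± 0.07 and -0.04 ± 0.07.

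Gene context at the ends differed from the rest of the chromosomes, and fold change differed between contexts. Distal ISs were more often intronic, 37.5% (34.5 to 40.7%) in the first table against 31.7%, and less often intergenic, 50.3% (47.1 to 53.5%) against 57.4%. Of the ISs in the second table, 34.1% were intronic against 28.7%, and 56.9% intergenic against 62.6%. Promoter ISs made up 7.82% (6.27 to 9.73%) against 6.64% in the first table and 4.44% against 4.53% in the second. After loss of RIF1 the 73 distal promoter ISs had a median log2 fold change of -0.15 (-0.20 to -0.09) and the 41 exonic ones -0.15 (-0.23 to -0.04), while intronic and intergenic ISs had 0.00 (-0.03 to 0.03) and 0.01 (-0.01 to 0.04). Promoter ISs elsewhere had -0.13 (-0.14 to -0.12), so the distal ones were like them, and exonic ISs elsewhere had -0.07 (-0.08 to -0.05), an interval inside that of the distal ones. Of the 73, 3 were lower (4.11%), against 6.28% of other promoter ISs. After MCM6 depletion the 126 distal promoter ISs had a median of -0.09 (-0.16 to -0.02), against -0.04 (-0.05 to -0.03) at other promoters. Of the 126, 5 were higher (3.97%) and 6 lower (4.76%), near the 4.81% and 3.96% of other promoter ISs. Of the 486 protein-coding genes that start in the 16 windows, 70 (14.4%, 11.6 to 17.8%) had an IS within 1 kb of a TSS in the first table, against 10.8% (10.4 to 11.3%) of the 18416 other genes, and 114 (23.5%, 19.9 to 27.4%) against 22.8% in the second.

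Over the windows as a whole, sequence features other than telomere repeats differed little from the rest, apart from a lower CpG content. A motif of 4 runs of at least 3 G, or of 3 C, separated by 1 to 7 bases, the pattern of a possible G-quadruplex, was found on either strand in 78.5% (75.7 to 81.0%) of distal ISs of the first table and 77.9% of the others, and in 77.5% and 77.3% in the second. Windows of the same width 5 kb away held it in 10.6% of cases at distal and 9.47% at other ISs in the first table, and in 12.4% and 12% in the second. Runs of 4 or more telomere hexamers match this motif as well. Median GC content of distal ISs was 47.8% against 47.2% in the first table and 45.4% against 44.6% in the second. The CpG content, as observed over expected, was 0.141 against 0.160 and 0.135 against 0.146. In the outermost 0.5 Mb CpG content was 0.112 in the first table and 0.107 in the second.

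Genes of 5 lists were followed through the IS nearest to their TSS, within 1 kb of it or in the gene body. Of 77 listed genes, 59 start in the 16 windows, and 21 of these had an IS in the first table and 31 in the second. Of these, 1 was at least 1.5-fold lower in the first table, and 1 was higher and 1 lower in the second, where 2.70% of all ISs were lower in the first and 4.80% and 1.51% higher and lower in the second, so that counts this small are no result about the lists. Their medians were -0.04 and -0.13, beside -0.01 and -0.02 over all distal ISs. The genes concerned, Ascl2 and Kcnq1, lie in the imprinted cluster of distal chromosome 7. The promoter IS of Ascl2, a transcription factor of the placenta that is expressed from the maternal allele, had 67 WT and 44 Rif1KO reads (-0.76 ± 0.28) but 114 Rif1KO_shLacZ and 194 Rif1KO_shMcm6 reads (0.60 ± 0.17), and it was called in WT and Rif1KO_shMcm6 cells alone, so both signs were selected for. Kcnq1, which encodes a potassium channel, had 115 and 72 reads at its promoter after MCM6 depletion (-0.84 ± 0.22), at an IS called in Rif1KO_shLacZ cells alone. In the cluster as a whole 15 of 16 listed genes were in the windows, 9 had an IS in the first table with a median of -0.02, and 11 in the second with a median of -0.10, of which 8 lay below 0. The IS nearest to a TSS was not the same in both tables for Igf2, Kcnq1, Slc22a18, Phlda2 and Dhcr7. For Igf2, a fetal growth factor, 1 IS had -0.02 ± 0.12 in Rif1KO cells and another 0.14 ± 0.13 after MCM6 depletion. The second table also holds an IS over an Igf2 TSS that overlaps the one of the first table, with 0.15 ± 0.07. For Phlda2, a regulator of placental growth, the values were -0.54 ± 0.23 and -0.07 ± 0.15, and for Dhcr7, the last enzyme of cholesterol synthesis, 0.12 ± 0.23 and -0.24 ± 0.11, each pair at ISs that do not overlap.

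The Polycomb genes Cbx2 and Cbx8, at the end of chromosome 11, which encode chromobox subunits of Polycomb repressive complex 1, had promoter ISs. Cbx8 had -0.18 ± 0.16 and -0.33 ± 0.13, and Cbx2, with an IS in the second table, 0.14 ± 0.17. Of the genes of replication, repair and telomeres, 6 of 17 listed were in the windows. Rtel1, a helicase of telomere maintenance on chromosome 2, had a promoter IS in the second table with 82 and 131 reads (0.51 ± 0.20), called in Rif1KO_shMcm6 cells alone, and Rfc3, a subunit of the clamp loader on chromosome 5, had 59 and 65 reads in the first (-0.01 ± 0.26). Brca2 and Sirt7 had no IS in either table. Of the immune list 16 of 20 genes were in the windows, and the 4 and 6 of them with an IS had values from -0.10 to 0.32 and from -0.23 to 0.38. Isg15, an interferon-induced ubiquitin-like gene, had -0.04 ± 0.26 and -0.18 ± 0.15 at its promoter. Of the list of growth and cell cycle genes, all 19 were in the windows, and the 5 and 8 with an IS ranged from -0.40 to 0.00 and from -0.36 to 0.37. The promoter IS of Ccnd1, which encodes cyclin D1, had 76 WT and 74 Rif1KO reads (-0.19 ± 0.24), and that of Cttn, the gene of the actin regulator cortactin, 0.00 ± 0.15 and 0.07 ± 0.08.

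ISs past 1.5-fold in both comparisons were few at the ends and elsewhere. Of the distal ISs, 755 matched 1 to 1 between the tables. Among these 7 were at least 1.5-fold higher and 8 lower after loss of RIF1, 7 were higher and 11 lower after MCM6 depletion, and 0 were past 1.5-fold in the same direction in both. Of the 24759 matched ISs on the rest of the 16 chromosomes, 230 were higher and 278 lower after loss of RIF1, and 220 and 380 after MCM6 depletion. The counts in single comparisons at the ends are near these in proportion and are no result about the ends. On the rest 4 were higher in both and 13 lower in both, so a count of 0 among 755 is near the background. Across the 755, fold changes in both comparisons had a Spearman's rho of 0.106, and 0.117 across the matched ISs elsewhere. This is a description across ISs of pooled libraries that share the genome sequence but no library.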

How the data were processed

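SNS-seq libraries of CH12 cells, 2 per group, were processed by the authors. Reads were trimmed with Trim Galore 0.6.4 (cutadapt 2.6) and aligned to mm9 with Bowtie 1.2.3, of which only unique alignments were kept, and peaks were called with MACS without an input library, joined across replicates and kept where they fell into clusters. The deposited tables hold log2 RPM of each IS, 1 value per condition with the libraries pooled. How the libraries were pooled is not given in the sources used here. The other deposited columns, with coordinates and the IS lists of 4 conditions, gave position and calls. The authors' own fold change and class columns were not used.

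RPM values were whole multiples of 1 read for 100% of values within 0.02 reads, so read counts per IS were recovered. Counting SE is that of a log ratio of 2 Poisson counts. PCR copies cannot be told from separate molecules, so all intervals and SEs cover counting or the spread over ISs only. Shares have 95% Wilson intervals, ISs per Mb exact Poisson intervals, and medians order-statistic intervals. Higher and lower mean a log2 fold change of at least 0.585 either way. Chromosomes 10, 15 and 16 were left out by the rule. Promoter means within 1 kb of a protein-coding TSS of GENCODE on NCBIM37, and lengths exclude unassembled bases. ISs named singly were, in each table, those ranked 1 to 3 at either extreme of fold change, taken over distal ISs of at least median density, the 3 densest in the control and the 1 nearest to an end. The distal ISs and gene lists were chosen with earlier results of these data known, and the 3 Mb windows, the division of the ends by GC content, the ISs in the last 10 kb and the detail of chromosome 11 after their values were seen. A small number of genes and sequences are not reported here. Scripts were tested on simulated data. Python 3.11.15, pandas 2.3.3, numpy 2.4.6, scipy 1.17.1, pysam 0.24.0 and matplotlib 3.10.9 were used.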

Additional observations from a re-analysis of the deposited data

How the results depend on the processing

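Of 88 recomputed values of 12 results, 57 stayed inside the 95% interval of the reported value, 31 lay outside it and 0 reversed. A reversal could be counted only for a signed value whose interval excluded 0, which was the median fold change after MCM6 depletion alone. After loss of RIF1 the median changed sign, from -0.008 to 0.001 without ISs within 1 kb of a TSS, inside its interval of -0.027 to 0.003. No paired analysis was possible because the deposited tables used here hold 1 pooled value per condition. This also kept leaving out a library and count models over replicates from being run. With the limit at 1 Mb, the share higher in Rif1KO cells was 0, the WT density 4.41, the share higher after MCM6 depletion 2.53%, the ISs of the MCM6 comparison 57.1 per Mb and the Rif1KO_shLacZ density 2.74. With the limit at 5 Mb, 21.4 ISs per Mb were found in the first table. The median after loss of RIF1 was -0.015 (-0.027 to -0.004) with the limit at 5 Mb and -0.006 (-0.032 to 0.024) at 1 Mb. It was -0.027 (-0.051 to -0.008) with ISs of both lists. Without ISs under the lower quartile of density, the shares higher and lower were 0.137% and 0.549% after loss of RIF1 and 2.43% and 0.826% after MCM6 depletion, whose median was -0.032 in place of -0.019. With ISs of both lists of a table only, the shares were 0 and 0.561% in the first table and 0.675% and 0.779% in the second, where the median was -0.049, with 11.2 and 40.2 ISs per Mb and densities of 4.75 in WT and 3.0 in Rif1KO_shLacZ cells. Per kb, the distal excess in WT density was 0.01 in place of 0.08. On the log2(RPM + 1) scale 2.50% were higher and 0.422% lower after MCM6 depletion. At a 2-fold threshold the shares were 0 and 0 after loss of RIF1, and 0.739% and 0.0352% after MCM6 depletion. At a log2 threshold of 0.32 they were 7.72% and 11.5%, and 14.1% and 11.9%. Leaving out each chromosome in turn gave medians from -0.017 to 0.002 after loss of RIF1 and from -0.026 to -0.011 after MCM6 depletion. The shares fall with the filters because most ISs past the threshold are sparse or in 1 list, and the threshold sets them directly. The causes of the other moves were not tested. With medians of 77 and 84 reads per distal IS, single ISs of the first table cannot show differences near the medians given here.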
